A study of Homo sapiens with 4 samples.

Results

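The genes described here are FGA, FGB, FGG, FGL1, C3, C5, CFB, CFI and TF, which encode fibrinogen chains, a fibrinogen-like protein, complement proteins and transferrin. They were chosen by name, with earlier results of these data known. All 9 were found among the 43317 gene names of the array, as 13 probes. FGA had 3 probes, C3 and CFI had 2 each, and the other 6 genes had 1. TF is the carrier of iron in plasma and belongs to neither fibrinogen nor complement. Tissue factor, which shares that abbreviation, is the separate gene F3.

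Total RNA was measured with 1-colour Agilent arrays in HCT116, a colorectal cancer line, and A549, a lung cancer line. Cells of both lines were transfected with the microRNA miR-891b or with the negative control NC1, in each case with the reagent Dharmafect1, and the dose and the time of harvest are not given in the sources used here. Each combination of line and transfection, 4 in all, had 1 array, so a difference within a line has no replicate check and carries no p-value. Each line had a slide and a scan of its own, and McCoy's 5A and DMEM were the media named for the 2 lines, so line, slide and medium cannot be told apart. The arrays read RNA of whole cultures, in which fewer producing cells and less RNA per cell cannot be told apart.

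Fibrinogen is assembled from pairs of alpha, beta and gamma chains, encoded by the neighbouring genes FGA, FGB and FGG, and thrombin converts it to the fibrin of blood clots. Complement is a cascade of plasma proteins in which C3 is the central component, C5 starts the terminal pathway, CFB forms the alternative pathway convertase with cleaved C3, and CFI cleaves activated C3 and C4 to stop it. The liver makes most of these proteins and raises several of them in the acute-phase response, through interleukin 6 and the factors STAT3 and C/EBP. A549 cells are of alveolar type and are known to make fibrinogen and complement proteins in culture.

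The fibrinogen chain genes are shown first by the sequence before their start sites, because they lie side by side and were all measured in A549 only. RefSeq windows (GRCh38.p14) were found for 7 of the 9 genes, and the 250 bases before the first start listed are printed for the 3 chains. Capitals mark CTGGGA, a motif known from interleukin 6 responsive fibrinogen promoters, on either strand.
FGA, chr4:154590743-154590992, minus strand: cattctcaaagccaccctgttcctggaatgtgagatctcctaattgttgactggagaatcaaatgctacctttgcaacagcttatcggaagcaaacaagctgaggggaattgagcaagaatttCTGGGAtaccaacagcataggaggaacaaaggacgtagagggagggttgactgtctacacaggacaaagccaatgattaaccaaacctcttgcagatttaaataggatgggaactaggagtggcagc
FGB, chr4:154562730-154562979, plus strand: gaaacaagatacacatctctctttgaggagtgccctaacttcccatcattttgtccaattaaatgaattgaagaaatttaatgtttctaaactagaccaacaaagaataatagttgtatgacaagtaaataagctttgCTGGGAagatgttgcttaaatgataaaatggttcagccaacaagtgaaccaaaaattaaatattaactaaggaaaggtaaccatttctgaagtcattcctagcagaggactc
FGG, chr4:154612657-154612906, minus strand: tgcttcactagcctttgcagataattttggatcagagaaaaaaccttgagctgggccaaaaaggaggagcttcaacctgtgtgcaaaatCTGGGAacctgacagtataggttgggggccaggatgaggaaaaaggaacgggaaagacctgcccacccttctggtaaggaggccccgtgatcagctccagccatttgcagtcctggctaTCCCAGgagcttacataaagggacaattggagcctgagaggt

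CTGGGA was in all 3 windows, once each in FGA and FGB, where it began 127 and 112 bases before the start, and 2 times in FGG, where it began 161 bases before the start and, on the opposite strand, 42. Of 35116 RefSeq windows of this length, 28.7% held CTGGGA on either strand. Among the other members found in the table, it was in none of the C5, CFB, CFI and TF windows. Because the motif is known from fibrinogen promoters, its presence in the windows of the 3 chains is no independent finding. These matches describe letters and not bound sites.

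A microRNA pairs with transcripts mainly through its seed, bases 2 to 8, which are in capitals in the mature miR-891b (RefSeq, GRCh38.p14). The complement of that seed is AAGTTGC. It was looked for in the 60-base probes of the members because the probes are the only transcript sequence in the files. It occurred in 1 of 13 member probes, the FGA probe assigned to the alpha-E transcript, of which the 30 bases around the match are shown (hg19).
miR-891b: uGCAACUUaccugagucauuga
FGA alpha-E probe, chr4:155504372-155504401, minus strand: atatttgatctAAGTTGCatctttaatcct

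Between the lines, members were higher in A549. All 13 probes were well above background, by the mark that the scanner software sets, on both A549 arrays. Only 2 were on HCT116 NC1 (1 each for C3 and CFI), and 3 were on HCT116 miR-891b (C3, CFI and FGL1). The 10 probes not well above background on either HCT116 array had processed signals of 0.975 to 4.32 (median 1.21) on NC1 and 1.41 to 2.33 (median 1.65) on miR-891b. Signals of different probes are not comparable, so each probe is compared across arrays only.

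**Figure D1:**
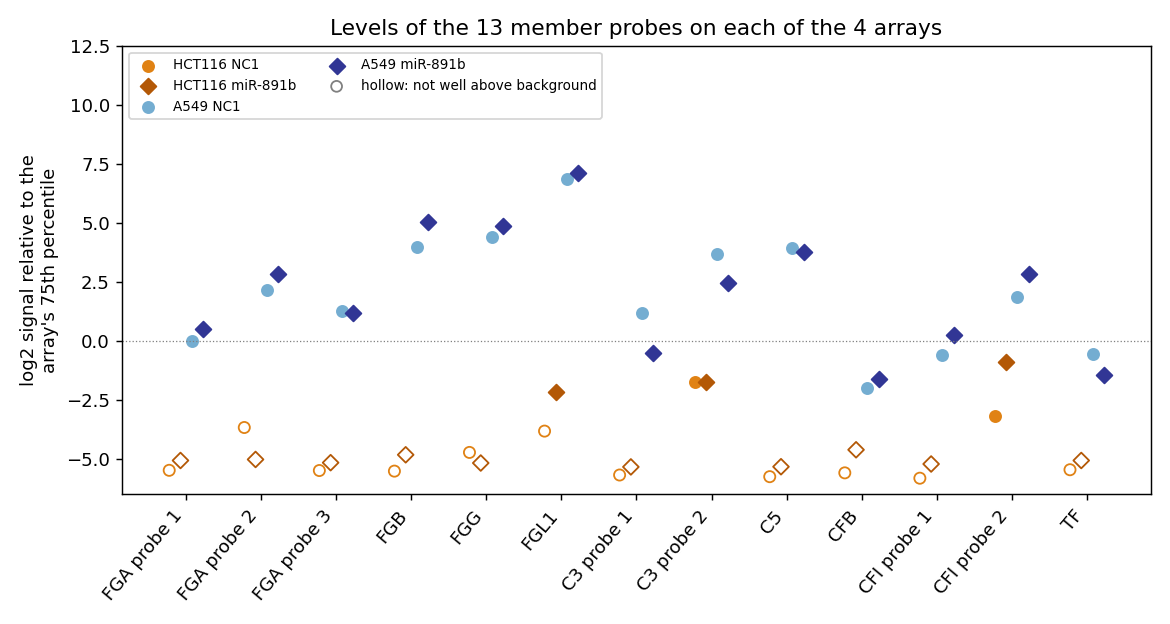
Each point is the log2 signal of 1 probe on 1 array, relative to that array's 75th percentile (y axis), for the 13 probes (x axis, numbered along the transcript); filled points are well above background and hollow ones are not, with no error bars because each group is 1 array. The A549 points are filled for all 13 probes and lie above both HCT116 points of the same probe, and only C3 probe 2, CFI probe 2 and FGL1 have filled HCT116 points.

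For the fibrinogen genes, the probe with the highest mean level over the arrays stood for the gene. FGA (probe at chr4:155507248-155507307, hg19) had signals of 4.32 and 1.76 on HCT116 NC1 and miR-891b, and 337 and 525 on A549 NC1 and miR-891b. FGB (chr4:155492029-155492088) had 1.20, 2.01, 1177 and 2462 in the same order. FGG (chr4:155526065-155526124) had 2.08, 1.58, 1600.3 and 2182. In each gene both A549 signals exceeded both HCT116 signals, which were not well above background. With the lowest signal marked well above background on the HCT116 array as the limit, A549 NC1 exceeded HCT116 NC1 at least 52.7-fold for FGA, 184-fold for FGB and 250-fold for FGG. After normexp background correction with quantile normalization these bounds were far lower, at 2.34, 4.13 and 4.56 on the log2 scale, against 5.72, 7.52 and 7.97 here. Normexp was run with an offset of 50 added to each signal, which shrinks any difference that involves a low signal. The other FGA probes gave bounds of at least 11.8-fold (between chr4:155508789 and chr4:155509983) and 28.5-fold (the alpha-E probe).

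FGL1, a hepatocyte-secreted relative of fibrinogen that is also a ligand of the T-cell receptor LAG3, had signals of 3.89 and 12.8 on the HCT116 arrays and 8744 and 10369 on the A549 arrays. It was not well above background on HCT116 NC1, and A549 NC1 was at least 1367-fold higher. On the miR-891b arrays, where both lines were measured, A549 was 622-fold higher. The HCT116 spot there lay in an area of stray signal, where 12.1% of nearby spots dim on the other arrays were bright.

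Of the complement genes, C3 and CFI had measured levels in both lines. C3 (probe with ends at chr19:6679177 and chr19:6679434) had signals of 16.6 and 17.2 in HCT116 against 954 and 405 in A549. The difference on the NC1 arrays was 5.40 on the log2 scale, or 42.2-fold, and on the miR-891b arrays 4.18, or 18.1-fold. CFI (chr4:110662064-110662123) had 6.03 and 30.7 in HCT116 and 269 and 531 in A549, so that A549 was higher by 5.03 (32.7-fold) with NC1 and by 3.73 (13.3-fold) with miR-891b. For both genes both A549 signals exceeded both HCT116 signals, as they did for the fibrinogen genes. The share of all genes with this pattern was not counted. The second C3 probe (chr19:6686136-6686195) and the second CFI probe (chr4:110670656-110670715) were not well above background in HCT116, with bounds of at least 26.4-fold and 7.76-fold on the NC1 arrays.

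C5 (chr9:123715067-123715126) had signals of 1.02 and 1.42 in HCT116 and 1148 and 999 in A549, at least 179-fold higher with NC1. CFB (between chr6:31918992 and chr6:31919147) had the smallest bound, with 1.14 and 2.33 in HCT116 against 18.9 and 24.0 in A549, at least 2.95-fold. TF (chr3:133495990-133496049) had 1.25 and 1.70 against 50.8 and 27.6, at least 7.94-fold. F3, the tissue factor gene, went the other way, with signals of 256 and 311 in HCT116 and 79.5 and 73.7 in A549.

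**Figure D2:**
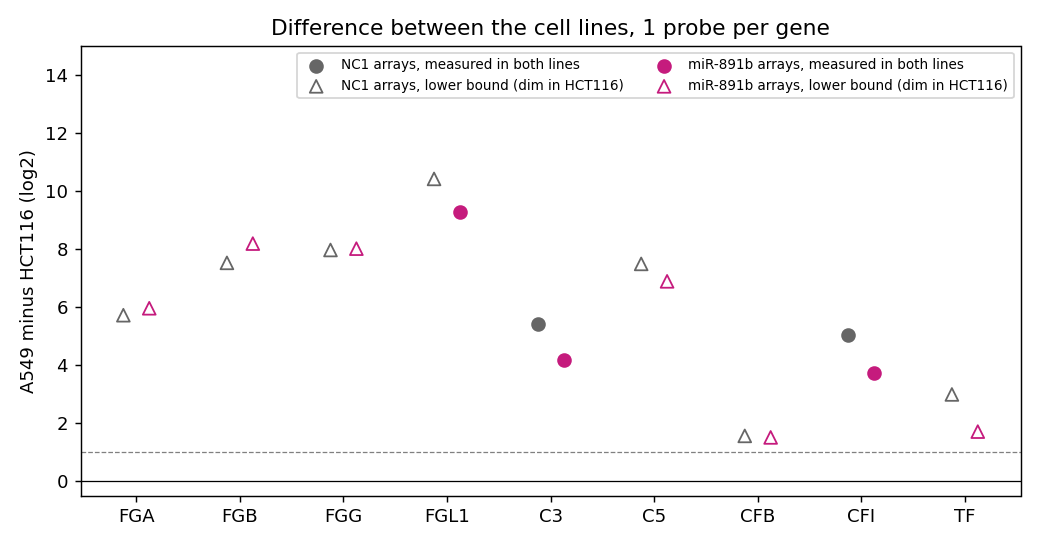
The A549 minus HCT116 difference (y axis, log2) is shown for 1 probe per gene (x axis) on the NC1 arrays and on the miR-891b arrays; filled circles are measured in both lines and open triangles are lower bounds. All 9 genes lie above the dashed line at 2-fold on both pairs of arrays, from bounds of 1.56 and 1.51 for CFB to 10.4 and 9.28 for FGL1.

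Both members measured on both NC1 arrays were at least 2-fold higher in A549, where 11.1% of 19217 genes so measured were (median difference over all of these -0.10, against 5.22 for C3 and CFI). The other 7 members were well above background on A549 NC1 only, and all had a bound of at least 2-fold, as did 30.6% of the 4094 genes measured on 1 of the 2 arrays. The additive limma model, with terms for line and treatment over 2 arrays per line and 1 residual degree of freedom, gave a line coefficient of 4.79 (SE 0.38, Benjamini-Hochberg adjusted p = 0.0029) for C3 and 4.38 (SE 0.39, adjusted p = 0.0039) for CFI. The same limma fit called 15.5% of 22711 genes higher in A549. Because the members were chosen with earlier results of these data known, these shares and p-values are no independent support. C3 and CFI were the only 2 members well above background on all 4 arrays. FGL1 and the 6 members marked on the A549 arrays alone entered the model through A549, so their calls there carry no weight of their own. After normexp background correction with quantile normalization the bounds of CFB and TF were below 2-fold, which left 7 members past it. The A549 signals of CFB and TF were under or near the normexp offset of 50, so this outcome is no test of their difference. With normexp the CFI difference on the NC1 arrays was 2.20 and that of C3 3.58. The bounds of FGL1 and C5 were 7.05 and 4.28 there, against 10.4 and 7.49 here.

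The line labels were checked with marker genes. On the NC1 arrays 6 of 6 A549 markers were higher in A549 (5 by value and 1 by bound). Of 6 HCT116 markers, 4 were at least 2-fold higher in HCT116, LGALS4 was higher in A549, and GPA33 was marked on none of the 4 arrays. Of 8 fibroblast markers 4 were well above background in A549 (COL1A1, PDGFRB, LUM and THY1) and 2 in HCT116, with COL1A2, COL3A1, DCN and FAP not well above background on any array. All 5 hepatocyte markers (ALB, APOA1, AHSG, TTR and HP) were well above background in A549, and 2 (APOA1 and AHSG) were in HCT116. With miR-891b in A549, ALB and TTR were higher, APOA1 (14.8 to 7.18) and HP (14.2 to 5.76) were lower, and AHSG read 19.8 and 19.1. Other hepatocyte genes (APOB, APOA2, APOC3, CRP, SAA1 and SAA2) were not well above background in either line. The summed signal of the 5, which rests mostly on TTR in A549, was 33.4 and 29.6 in HCT116 and 150 and 529 in A549, NC1 first.

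The study's own comparison, miR-891b against NC1, was then made within A549, where all members were measured. FGB was higher with miR-891b and C3 was lower, each by over 2-fold, and CFI lay just under 2-fold higher. Of the 9 genes 6 were higher and 3 lower, with a median change of 0.36 on the log2 scale against -0.059 over all 21335 genes measured. The error given with a signal is the one that the scanner software assigns to the spot, and the SE of a change combines the errors of its 2 spots, so it covers neither the culture nor the labelling. The median SD of a change over the spots of 287 repeatedly printed probes was 0.071 in A549. For the 11 of them with a control signal under 50 it was 0.22.

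FGB had signals of 1177 ± 118 with NC1 and 2462 ± 246 with miR-891b. The change was 1.08 on the log2 scale (spot SE 0.20), or 2.11-fold. FGG went from 1600.3 ± 160 to 2182 ± 218, a change of 0.46 (spot SE 0.20), and the FGA probe that stood for the gene went from 337 ± 33.7 to 525 ± 52.6, a change of 0.65 (spot SE 0.20). The representative probes of all 3 chains were thus higher with miR-891b, FGB alone past 2-fold.

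The 3 FGA probes differed in their change. The probe at position 383 of its transcript went from 75.2 to 106, a change of 0.50, close to that of the probe at position 1331. The alpha-E probe (position 3510), the one that holds the seed match, went from 182 to 168, a change of -0.11. It lay below the probe at 1331 by 0.76 and below the probe at 383 by 0.61, each with a spot SE of 0.29. Across the array 0.393% of gene probes held AAGTTGC, and the 110 of them measured in A549 had a median change of -0.49 (quartiles -0.76 and -0.080), against -0.061 for probes without it. The change of the alpha-E probe, -0.11, lay between the quartiles of the probes with the match. It was also close to the median of the probes without the match, so these values do not place it with either set. Alpha-E is a longer transcript of FGA, so the probes also differ in the transcripts they read. The part of the match in the difference was not tested.

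FGL1 went from 8744 ± 874 to 10369 ± 1037 in A549, a change of 0.26 (spot SE 0.20), which is close to the spot error. Quantile normalization gave 0.61 for it, and normexp with quantile normalization 0.68, so its size depended on the normalization.

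C3 had signals of 954 ± 95.4 and 405 ± 40.5 in A549, in that order, a change of -1.22 (spot SE 0.20), or 2.34-fold lower. Its second probe, with signals of 169 ± 16.9 and 52.4 ± 5.35, changed by -1.68 (spot SE 0.21), or 3.20-fold lower. Both C3 probes were thus past 2-fold in the same direction, at positions 4622 and 3842 of the transcript.

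CFI, which degrades activated C3, was higher by 0.99 (spot SE 0.20), from 269 ± 26.9 to 531 ± 53.1, or 1.99-fold. Its second probe was higher by 0.84, from 49.6 to 88.3. CFI passed 2-fold under quantile normalization (1.11) and under median scaling (1.05), so that 2 members were higher and 1 lower past 2-fold there, against 1 and 1 here. The directions of C3 and CFI were opposite in A549, on both probes of each gene.

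C5 went from 1148 ± 115 to 999 ± 99.9, a change of -0.19 (spot SE 0.20). CFB went from 18.9 ± 2.17 to 24.0 ± 2.62, a change of 0.36 (spot SE 0.23). Neither change was more than 2 spot SE from 0. TF was lower with miR-891b, at 50.8 ± 5.23 and 27.6 ± 3.09, a change of -0.87 (spot SE 0.22), or 1.83-fold.

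**Figure D3:**
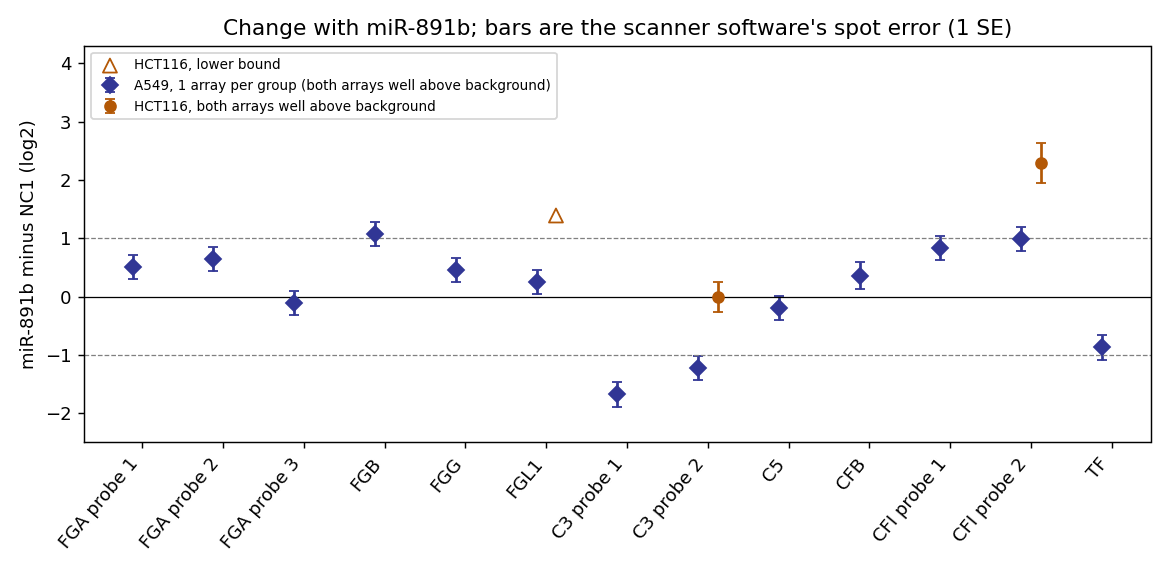
The miR-891b minus NC1 change (y axis, log2) is shown for each of the 13 probes (x axis), with diamonds for A549, circles for HCT116 where both arrays were well above background and a triangle for a lower bound; bars are 1 SE of the scanner software's spot error, and each point compares 1 array with 1 array. In A549 the FGB probe lies above the dashed line at 2-fold and both C3 probes lie below the one at -1, and in HCT116 CFI lies at 2.29 and C3 at -0.0030.

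Of the 9 measured members 1 (FGB) was at least 2-fold higher in A549, where 4.01% of 21335 genes were, and 1 (C3) was at least 2-fold lower, where 5.57% were. With 1 gene in each direction the members' shares carry little information against that background. Of the 13 member probes none lay in an area of stray signal on either A549 array, by the measure used here, which is the share of nearby dim spots that are bright on 1 array only.

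In HCT116 the comparison could be made for C3 and CFI, with a bound for FGL1. C3 had signals of 16.6 ± 1.96 and 17.2 ± 2.23 in the order NC1 and miR-891b, and changed by -0.0030 (spot SE 0.25). CFI had 6.03 ± 1.24 and 30.7 ± 3.39, a change of 2.29 (spot SE 0.34), or 4.90-fold. FGL1 had 3.89 ± 1.14, not well above background, and 12.8 ± 1.91, at least 2.62-fold higher with miR-891b. The second C3 probe read 1.07 and 1.41 in HCT116, not well above background on either array. C3, lower in A549, was thus level in HCT116 on its 1 measured probe, and CFI was higher in both lines. The difference between the lines in these changes was not tested.

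Several values stand beside the CFI and FGL1 results in HCT116. The CFI signal with NC1 was close to 4.69, the lowest signal marked well above background on that array, and the second CFI probe read 0.975 and 1.54, not well above background on either array. The CFI change was 1.45 as the mean over both probes. It was 0.57 after normexp with quantile normalization, where the offset of 50 exceeds both CFI signals, so that value is no test of the change. The FGL1 spot lay in an area of stray signal on HCT116 miR-891b, with 12.1% of nearby dim spots bright there, as did 10.5% of gene spots on that array, and the CFI spot had 7.65%, under the limit of 10%. The part of stray signal in these results was not tested. Among the A549 markers on the HCT116 arrays, ALDH1A1 read 2.12 and 1.59 and AKR1C1 7.54 and 7.43 with NC1 and miR-891b, against 43070 and 34421 on A549 miR-891b. AKR1B10 read 11.2 and 259. The summed signal of the 6 markers was 3711 and 3387, of which KRT81 alone gave 3464 and 2954.

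Of the 2 members measured on both HCT116 arrays 1 (CFI) was at least 2-fold higher, where 1.16% of 19104 genes were, and 0 were at least 2-fold lower, where 0.843% were. FGL1 was the only member measured on 1 of the 2 arrays. Of 2207 genes with a bound in either direction, 32.7% were at least 2-fold higher with miR-891b and 4.67% at least 2-fold lower. Genes marked with NC1 only are among the 2207 and cannot have a bound higher with miR-891b. In the additive limma model of miR-891b against NC1 over both lines, 0 members had an adjusted p under 0.05, and 0% of 22711 genes were called in either direction (smallest adjusted p from limma 0.793). Without adjustment, 525 genes were higher and 689 lower at p under 0.05. CFI, higher in 2 of 2 lines, had a coefficient of 1.64 (SE 0.39) with a limma adjusted p of 0.793.

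The other genes of the pathways were taken from lists fixed by name, with earlier results of these data known. Of 23 other complement components and lectin-pathway genes, 10 were measured on both A549 arrays, with a median change of 0.15, 2 at least 2-fold higher and 0 lower. The 2 were C1S (1.725) and C1R (1.29), the proteases of the C1 complex that start the classical pathway. C1S was also at least 2-fold higher in HCT116 (1.26), whereas C1R changed by -0.74 there. On the NC1 arrays the A549 level of C1S exceeded that in HCT116 by 3.89 and that of C1R by 1.52.

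Of 16 complement regulators and receptors 12 were measured in A549, with a median change of 0.15. C4BPA, a subunit of the C4b-binding protein that is a cofactor of CFI, was at least 2-fold higher (1.18), and VTN, which blocks the terminal complex, was lower (-1.39). CD59, the membrane inhibitor of the terminal complex, changed by 0.90 in A549 and 1.74 in HCT116. CD46, a membrane cofactor of CFI, changed by -0.50 in A549, and CD55, which dissociates the convertases, by -0.30.

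Of 24 coagulation and fibrinolysis genes 17 were measured in A549, with a median change of -0.10, 2 at least 2-fold higher and 2 lower. F13B, the carrier subunit of the fibrin cross-linking factor, was higher by 2.46 and F5 by 1.14. F12 changed by -1.71 and PLAUR by -1.47, the latter with its spot in an area of stray signal (13.7% of nearby dim spots). In HCT116 0 of 12 measured genes of this list were past 2-fold. On the NC1 arrays 5 of the 12 genes measured in both lines were at least 2-fold higher in A549, THBD by 5.77, and 5 were lower. Of 7 measured in 1 line only, 4 had a bound of at least 2-fold higher in A549, with TFPI2 at least 403-fold, and 1 lower.

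Of 27 other plasma proteins made mainly by hepatocytes 18 were measured in A549, with 5 at least 2-fold higher and 5 lower, and a median change of 0.0090. TTR, the carrier of thyroxine, went from a signal of 87.2 to 436 (2.33) and ALB from 13.7 to 61.3 (2.17), whereas AGT, the angiotensin precursor, went from 110 to 18.4 (-2.56) with its spot in an area of stray signal (10.7%). On the NC1 arrays 12 genes of this list were measured in 1 line only, of which 10 had a bound of at least 2-fold higher in A549. SERPINA3 (3.42) was the 1 of 7 genes measured in both lines that was at least 2-fold higher there, and 3 were lower. The list thus held genes past 2-fold in both directions with miR-891b, as the members did.

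The iron list sets TF beside its partners. All 10 of its genes were measured in A549, 0 were past 2-fold with miR-891b, and the median change was -0.25. TFRC, the transferrin receptor, had signals of 2210 and 1160 in A549 (-0.92) and 2024 and 1828 in HCT116 (-0.20). SLC40A1, the iron exporter, was at least 77.8-fold higher in A549 on the NC1 arrays, and FTL, the ferritin light chain, was higher by 2.39.

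Of 18 regulators of acute-phase and hepatocyte genes 17 were measured on both A549 arrays, with a median change of 0.018. IL6R, the interleukin 6 receptor, was higher with miR-891b by 3.20 in A549 (7.93 to 72.1) and by 1.69 in HCT116 (7.74 to 25.9), and CEBPA by 1.09 in A549. Other genes of this pathway went both ways in A549. CEBPB changed by -0.49, CEBPD by -0.082 and IL6 by -0.57, whereas STAT3 changed by 0.50 and SOCS3 by 0.10. FOXA2 was higher in A549 by 7.27 on the NC1 arrays. In HCT116 STAT3 changed by -0.67.

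**Figure D4:**
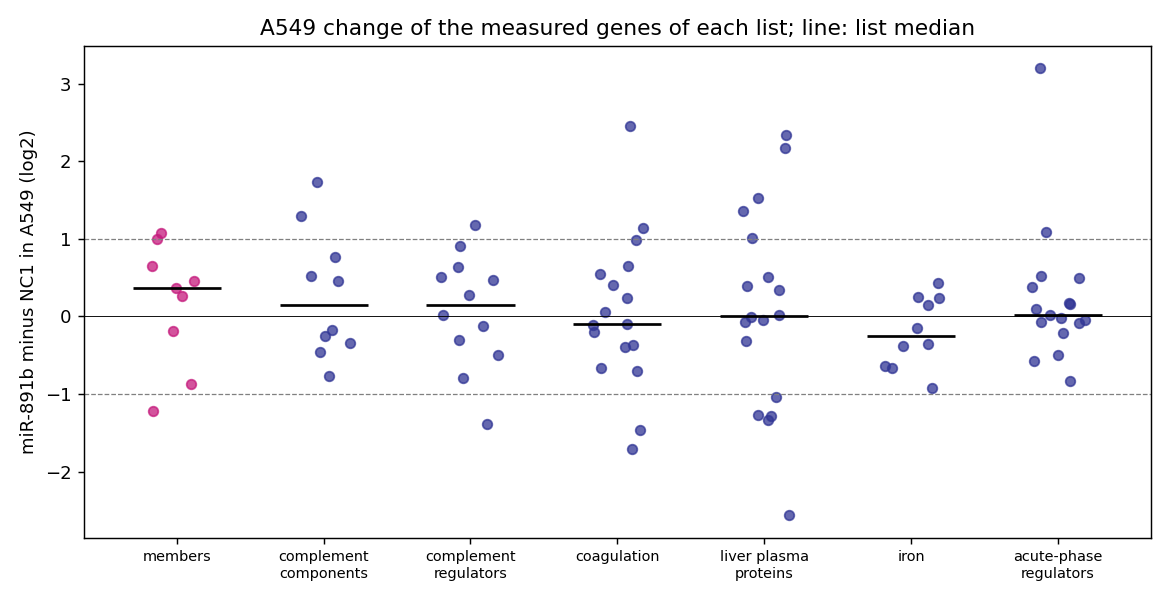
Each point is the miR-891b minus NC1 change in A549 (y axis, log2) of 1 gene well above background on both A549 arrays, grouped by list (x axis), with black lines at the list medians, dashed lines at 2-fold and no error bars because each group is 1 array. The 9 members have a median of 0.36 and span -1.22 to 1.08, and the plasma protein list spans -2.56 to 2.33.

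For C3 and CFI the genes with the most similar pattern over the 4 arrays were found by the Euclidean distance of centred log2 levels among 12724 named genes well above background on all of them, Y-linked genes left out. LARGE (0.37) and SPDEF (0.40) were nearest to C3, and CYP3A7 (0.67) and C1S (0.93) were nearest to CFI. C1S had signals of 27.5 and 68.4 in HCT116 and 553 and 1816 in A549, in the order NC1 and miR-891b. With 4 arrays and a large line difference, such likeness rests mostly on the line.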

How the data were processed

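Total RNA (100 ng) of 4 samples was labelled with Cy3 and hybridised to 1-colour Agilent arrays, per the labels. Feature Extraction 11.5.1.1 read the scans, per the file headers, and the deposited intensity values are background-subtracted and detrended within an array, not scaled between arrays. Marks, spot classes and positions (other columns) are as deposited. The deposited table of the authors' log2 values, whose making is not stated, differed from the log2 signal minus the array's 75th percentile by a median of 0.0069 or less, and served as an alternative.

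Here log2 processed signals were averaged over unflagged spots and centred on the array's 75th percentile (signals of 54.9 and 57.0 in HCT116 and 74.8 and 74.2 in A549, NC1 first). Of 58201 gene probes, 44.7% to 50.3% were well above background, and no gene spot was saturated. The probe with the highest mean stood for a gene. Changes were called at 2-fold. A gene dim in 1 group has a bound: the brighter value over the higher of the dim probe's own and the lowest signal well above background. limma 3.58.1 (R 4.3.3) fitted the additive model to genes well above background on at least 2 of 4 arrays, with Benjamini-Hochberg adjustment over all. Other steps used Python 3.11.15, and steps were tested on simulated data. An area of stray signal has at least 10% of the spots within 10 rows and columns, dim on the other arrays, bright on this one. Sites, promoters and the miRNA were read from the probe column and RefSeq tables (GRCh38.p14).

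The members and the lists were chosen with earlier results of these data known. Named beside the members were up to 3 genes per list and comparison with the largest change past 2-fold. Also named were the 2 genes nearest to each member measured on all 4 arrays (Y-linked genes were left out after the data were seen). Pathway partners were chosen after their values were seen (C1R in HCT116, CD46, CD55 and CD59 with miR-891b in A549, TFRC, STAT3, SOCS3, CEBPB, CEBPD, IL6, F3). Some genes of the lists are not reported here. Alternatives were other normalizations (among them normexp with an offset of 50), the authors' table, no filter on dim probes, the mean over probes, leaving out areas of stray signal, and 1.5-fold and 3-fold.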

Additional observations from a re-analysis of the deposited data

How the results depend on the processing

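All 9 members stayed at least 2-fold higher in A549 under quantile normalization, median scaling, the authors' table, no filter on dim probes, the mean over probes and on the miR-891b arrays. The count was 7 with normexp, where the offset of 50 shrank the differences of the dim CFB and TF. It was 8 at 3-fold or without areas of stray signal, which leaves out the only FGL1 probe. In A549, 2 members were past 2-fold with miR-891b. The count was 5 at 1.5-fold (FGA, FGB, C3, CFI and TF) and 0 at 3-fold. In HCT116, where leaving dim probes in gave 3, the 2 called members became 0 with normexp and quantile normalization, 1 without areas of stray signal (CFI) and 1 at 3-fold (CFI). The normexp offset of 50 exceeds the HCT116 signals of both called members, so the count of 0 is no test of their changes. No member was called for miR-891b in the additive limma model under any of these normalizations or filters. The C3 change in A549 ranged from -1.45 to -1.04, that of FGB from 1.08 to 1.30, and that of CFI from 0.92 to 1.11. No single-member value called at 2-fold changed sign. The scalings moved the median change of all genes by at most 0.086.

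The additive model pairs the treatments by line, and no replicate numbers pair arrays within a line. Precision is limited by 1 array per group, and in HCT116 by signals near background.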
